A study of Rattus norvegicus with 4 samples.

Results

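Annexins are calcium-dependent phospholipid-binding proteins that attach to the inner face of membranes, and some of them also act outside the cell. Annexin I, also called lipocortin I, is induced by glucocorticoids and dampens inflammation, annexin II (lipocortin 2) gathers plasminogen and its activator at the cell surface, and annexin V binds exposed phosphatidylserine and slows coagulation. The family was described here as every spot of the array whose gene name holds the word annexin or lipocortin. This rule found 5 of the 1185 spots: annexin I, lipocortin 2, annexin III, annexin IV and annexin V.

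The RNA came from mesenteric white adipose tissue of female Wistar rats, which weighed 220 to 230 g at the start. OE-treated rats received 10 μmol/kg of oleoyl-estrone (OE), the oleic acid ester of estrone, by gavage each day for 2 days, in 0.2 ml of sunflower oil. Control rats received the oil alone, and in both groups the tissue was taken at 48 h. Each group had 2 rats, each on its own nylon array, called here control 1, control 2, OE 1 and OE 2, and the comparison asks whether OE changed the expression of the family. The adjusted intensity is the brightness of a spot minus the background, in the arbitrary units of the scanner, and a spot is called detected here from 2 times the background of its array, 108 to 122 units.

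After each array was divided by its 50th percentile, all 5 annexins were highest on control 2, as were 45.1% of the 922 genes tested, but annexin IV only with this scaling and that to the housekeeping genes. For all but annexin IV, the other 3 arrays lay within 1.28-fold (lipocortin 2) to 2.22-fold (annexin V) of each other. The ratio of OE to control was 0.278 for annexin I, 0.404 for lipocortin 2, 0.505 for annexin III, 0.705 for annexin IV and 0.248 for annexin V. Both OE arrays lay under both controls for 0 of the 5, against 15.8% of the genes, and 0 of the 5 passed the test over the whole array, which called 0% of the genes. Without control 2 the ratios of all 5 lay above 1, between 1.08 and 1.58. In tissue RNA, fewer cells of a type and less RNA per cell cannot be told apart.

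All 5 spots were matched to a rat gene of RefSeq (GRCr8) through its older symbols, lipocortin 2 as annexin II. RefSeq lists 12 protein-coding annexin genes in the rat, so the array holds 5 of 12. The 5 genes lie on different chromosomes. Anxa1 spans chr1:227287713-227306739 on the minus strand, Anxa2 chr8:78986252-79022638 on the plus strand, and Anxa3 chr14:13031675-13085678 on the minus strand. Anxa4 spans chr4:120741750-120798534 and Anxa5 chr2:121242133-121272935, both on the minus strand. RefSeq also lists 8 pseudogenes related to Anxa2 and 0 named for the other 4 members. The spots of annexin III and annexin V have 1 listed GenBank entry in common. Signal from one member or from a pseudogene in the spot of another was not tested.

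The sequence before the listed promoter start is shown for annexin I, lipocortin 2 and annexin III, which had the same order of arrays. It is also shown for annexin IV, which differed from them. The letters are those of RefSeq (GRCr8), 5′ to 3′ on the strand of the gene, and capitals mark the motifs searched.
Anxa1, chr1:227303733-227303982, minus strand: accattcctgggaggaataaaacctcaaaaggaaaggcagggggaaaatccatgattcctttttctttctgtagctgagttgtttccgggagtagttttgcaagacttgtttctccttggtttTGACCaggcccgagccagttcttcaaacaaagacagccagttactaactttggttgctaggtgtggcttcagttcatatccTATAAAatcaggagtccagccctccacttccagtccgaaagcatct
Anxa2, chr8:78986002-78986251, plus strand: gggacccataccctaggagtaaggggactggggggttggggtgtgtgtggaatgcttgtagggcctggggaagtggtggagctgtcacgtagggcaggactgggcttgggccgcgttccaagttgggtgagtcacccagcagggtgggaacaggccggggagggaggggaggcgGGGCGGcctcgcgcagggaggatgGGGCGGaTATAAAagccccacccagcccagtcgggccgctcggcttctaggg
Anxa3, chr14:13085679-13085847, minus strand: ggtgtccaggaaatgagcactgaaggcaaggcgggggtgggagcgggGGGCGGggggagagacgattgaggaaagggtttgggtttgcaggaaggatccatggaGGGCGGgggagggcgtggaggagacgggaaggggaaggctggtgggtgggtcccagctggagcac
Anxa4, chr4:120798535-120798763, minus strand: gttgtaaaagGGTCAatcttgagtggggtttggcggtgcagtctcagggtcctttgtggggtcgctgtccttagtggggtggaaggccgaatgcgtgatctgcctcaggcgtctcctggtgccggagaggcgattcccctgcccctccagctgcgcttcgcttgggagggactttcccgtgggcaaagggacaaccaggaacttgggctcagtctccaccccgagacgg
The stretch of Anxa1 lies inside the gene as RefSeq draws it, and those of Anxa3 and Anxa4 end at the border of the gene.

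The motifs were searched on both strands in the 250 bases before the listed promoter start, for all 5 members and all 33469 promoters. This start can lie inside the gene span given above. Of the 250 bases, those outside the span were 250 for Anxa2, 229 for Anxa4, 169 for Anxa3, 11 for Anxa5 and 0 for Anxa1. TATAAA, the TATA box, was found in Anxa1 at position -46, in Anxa2 at position -45, and in 12.9% of all promoters. Positions are counted back from the promoter start to the first base of the motif. GGGCGG, the GC box bound by Sp1, was found in Anxa2, Anxa3, Anxa4 and Anxa5, that is in 4 of 5, against 30.5% of all promoters. The windows of these 4 were 62.4 to 67.2% G or C, and that of Anxa1 45.2%. The shares do not take base composition into account. CCAAT was found in Anxa4 only among the 5, against 34.0%, and it lies past the stretch printed. The GC box of Anxa4, at -22, begins at the last base printed and is not capitalized. A GC box of Anxa3, at -44, lies past its printed stretch. GGTCA, the core letters of an estrogen receptor site, was found in Anxa1 and Anxa4, against 35.4%. AGAACA, the core letters of a glucocorticoid receptor site, was found in 0 of the 5 windows, against 17.5%. These are matches of letters in a short window, and no binding was measured.

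Before the levels, a few facts of the arrays bear on them. The background was 54 on control 2 and 60 to 61 on the other arrays, and between 152 and 246 spots were detected per array. Of all spots, 100 were detected on all 4 arrays and 900 on none. The 50th percentile of the adjusted intensities, used to scale each array, was 9 on control 2 and 14 to 22 on the other arrays. A scaled level is therefore given in array medians, and its value on control 2 depends on the smallest divisor. Spots of different genes do not share a scale, so levels were compared between arrays and not between genes, and a level summed over a list is led by its brightest spots. Only 2 arrays per group limit the precision of every value.

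Annexin V was the only member detected on all 4 arrays. Its adjusted intensity read 155 and 788 in the controls and 371 and 129 in the OE-treated rats, where the first of a pair is sample 1, and 4 readings in a row stand for control 1, control 2, OE 1 and OE 2. OE 1 lay between the controls and OE 2 below both, so the groups overlapped. The scaled controls were at 11.1 and 87.6 array medians, with a mean of 49.3 ± 54.1 (SD, n = 2), and the scaled OE arrays at 16.9 and 7.59, with a mean of 12.2 ± 6.56 (SD, n = 2). The means lay closer together than 1 SD of the control values.

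Annexin I is also listed on the array as phospholipase A2 inhibitory protein. Its adjusted intensity read 62 and 413 in the controls and 183 and 96 in the OE-treated rats. Control 2 and OE 1 were over the detection limit, and control 1 and OE 2 were under it. Both OE values lay between the controls. Scaled, the controls were at 4.43 and 45.9 array medians, with a mean of 25.2 ± 29.3 (SD, n = 2), and the OE arrays at 8.32 and 5.65, with a mean of 6.98 ± 1.89 (SD, n = 2).

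For lipocortin 2 the controls read 107 and 360 and the OE-treated rats 216 and 160, and it was detected on all arrays but control 1. Again both OE rats lay between the controls. In array medians the OE arrays were nearly equal, at 9.82 and 9.41, whereas the controls were at 7.64 and 40.0. The control mean was 23.8 ± 22.9 (SD, n = 2), and the OE mean 9.61 ± 0.287 (SD, n = 2).

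Annexin III, which is abundant in neutrophils, was detected on control 2 alone. The controls read 38 and 123 and the OE-treated rats 103 and 61. The order of the arrays was that of annexin I and lipocortin 2. Scaled, the controls were at 2.71 and 13.7 array medians, with a mean of 8.19 ± 7.74 (SD, n = 2), and the OE arrays at 4.68 and 3.59, with a mean of 4.14 ± 0.773 (SD, n = 2). Neither OE array reached the detection limit.

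Annexin IV, known from epithelial cells and from the zymogen granule membrane, had another order of arrays. The controls read 82 and 109 and the OE-treated rats 55 and 173, and it was detected on control 2 and OE 2. The OE arrays held both its lowest and its highest adjusted intensity. Scaled, the controls were at 5.86 and 12.1 array medians, with a mean of 8.98 ± 4.42 (SD, n = 2), and the OE arrays at 2.50 and 10.2, with a mean of 6.34 ± 5.43 (SD, n = 2). It was the only member whose OE arrays differed by more than its controls.

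**Figure D1:**
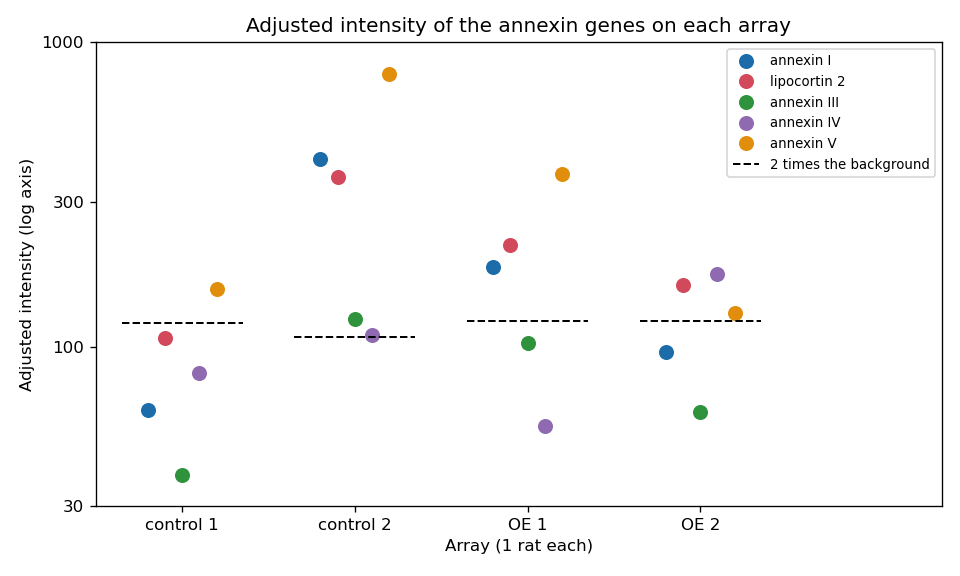
Adjusted intensity (arbitrary scanner units, log axis) of the 5 annexin genes on each of the 4 arrays, 1 rat per array; dashed lines mark 2 times the background, 108 to 122. Each colour is to be followed from array to array: 4 of the 5 genes peak on control 2, and annexin IV peaks on OE 2 at 173.

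**Figure D2:**
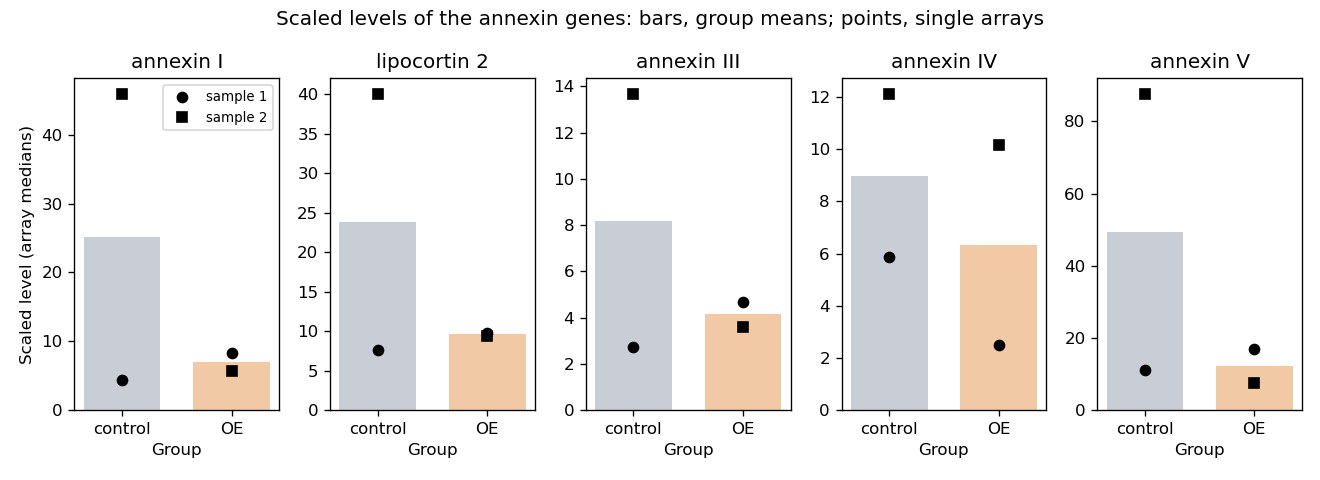
Scaled level (array medians, linear axes from 0) of each annexin gene; bars are the means of 2 arrays and points the arrays, circles for sample 1 and squares for sample 2. The control bars rest on control 2, which reaches 87.6 for annexin V, while control 1 lies near or between the OE points.

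Counted by the cutoffs of the methods, 3 of the 5 annexins (annexin I, lipocortin 2 and annexin V) had a ratio under 0.5, and 0 had a ratio over 1.5. Among the 922 genes tested the shares were 18.3% and 18.9%. Annexin III, at 0.505, lay just outside the cutoff. The median log2 ratio was -1.31 for the annexins and -0.16 for all genes. For 0 of the 5 annexins, and for 14.1% of the genes, both OE arrays exceeded both controls. The groups overlapped in each of the 5 members.

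The log2 values of all 922 genes were compared with limma, which shares the spread between arrays over the genes. It gave 0 annexins an adjusted p under 0.05. At an unadjusted p under 0.05 it gave 0 annexins and 2.06% of all genes, 19 in number. The log2 fold change was -1.46 for annexin V (standard error 1.16, 95% interval -4.44 to 1.52) and -1.06 for annexin I (standard error 1.22, interval -4.20 to 2.08). It was -0.86 for lipocortin 2 (standard error 0.94, interval -3.29 to 1.57), -0.74 for annexin IV (standard error 0.92, interval -3.10 to 1.62) and -0.57 for annexin III (standard error 0.94, interval -2.98 to 1.84). The adjusted p of limma was 0.958 for annexin III and 0.957 for the other 4. Every interval held 0 and also a fall or a rise of more than 2-fold, so that these arrays do not show the annexins to be equal in the groups. With 2 arrays a side, the two-sided p of an exact permutation test is never under 0.333, and none was run.

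The controls differed more from each other than the OE arrays did over the whole array, with a median absolute log2 difference of 1.20 for the controls and 0.52 for the OE pair, and so did all annexins but annexin IV. Control 2 was 10.4-fold over control 1 for annexin I, 7.91-fold for annexin V, 5.23-fold for lipocortin 2, 5.04-fold for annexin III and 2.07-fold for annexin IV. All 5 exceeded a 2-fold difference in this direction, against 37.1% of all genes. The fold of annexin I was larger than that of 96.5% of the genes and that of annexin V larger than that of 93.4%, while annexin IV passed 63.9%. These values depend on the divisor of control 2. With scaling to the total intensity, annexin I was 5.74-fold and annexin V 4.38-fold higher on control 2 than on control 1, and lipocortin 2 2.90-fold and annexin III 2.79-fold. Annexin IV was then at 1.14-fold and no longer highest on control 2, which held also after scaling to the 75th percentile or to the genes detected on all 4 arrays, after quantile normalization and without scaling. The other 4 remained highest on control 2 under each of these.

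OE 1 was 1.04-fold over OE 2 for lipocortin 2, 1.30-fold for annexin III, 1.47-fold for annexin I and 2.22-fold for annexin V. For annexin IV it was 0.246 of OE 2, lower than for all but 2.71% of the genes. With control 1 as the only control, the OE arrays gave ratios between 0.685 (annexin V on OE 2) and 1.88 (annexin I on OE 1), except for annexin IV at 0.427 on OE 1. With control 2 as the only control, all 10 ratios of a member on an OE array lay under 1, between 0.0867 for annexin V on OE 2 and 0.840 for annexin IV on OE 2.

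**Figure D3:**
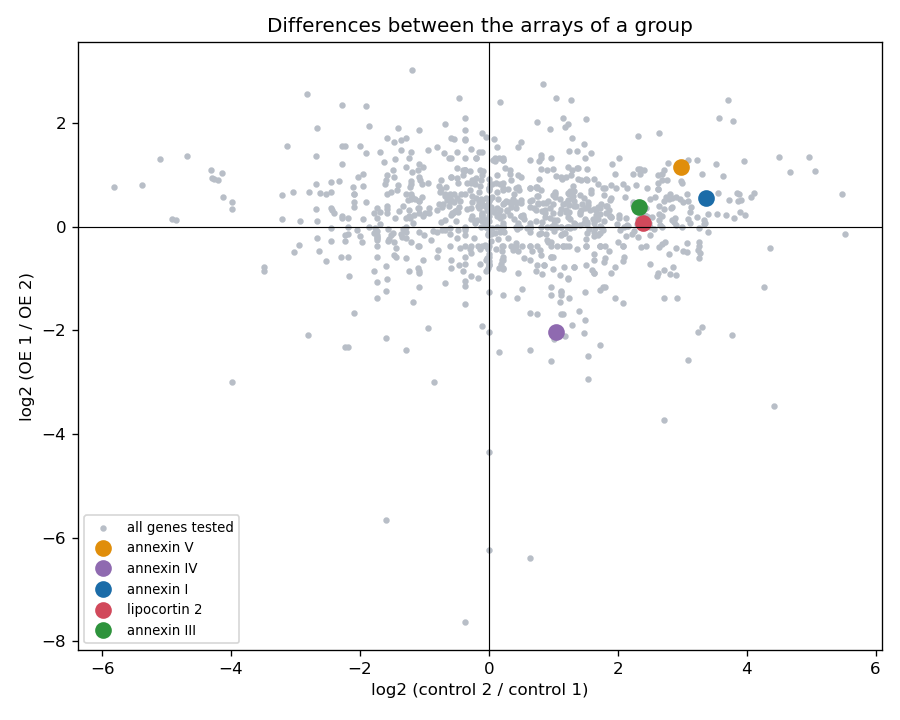
Difference between the controls (x axis, log2 of control 2 over control 1) and between the OE arrays (y axis, log2 of OE 1 over OE 2) in scaled values, for the 922 genes tested (grey) and the 5 annexins (coloured). All 5 annexins lie to the right of 0, from 1.05 to 3.37, and annexin IV stands apart at -2.03 on the y axis.

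The order of the arrays was the same for annexin I, lipocortin 2 and annexin III: control 2, then OE 1, OE 2 and control 1. This order was found in 14.8% of all genes. Annexin V differed from it only in that OE 2 lay below control 1. Likeness over the 4 arrays was measured as the Euclidean distance between log2 scaled values, each gene centred on its own mean, so that 0 means the same pattern. Lipocortin 2 and annexin III were nearest to each other, at 0.372, followed by annexin I and annexin V at 0.644. The distance of annexin IV to the other members was between 1.76 and 2.73. With 4 arrays such distances are a description only.

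Among the 99 other genes detected on all 4 arrays, the pattern most like lipocortin 2 was that of TIMP-1, the tissue inhibitor of metalloproteinases secreted by stromal cells, at a distance of 0.0687. TIMP-1 read 327 and 1029 in the controls and 639 and 476 in the OE-treated rats. IGFBP5, an insulin-like growth factor-binding protein, followed at 0.143 and the beta subunit of mitochondrial ATP synthase at 0.188. Annexin I and annexin V shared their nearest genes, Cu-Zn superoxide dismutase 1 at 0.441 and 0.473 and liver carboxylesterase 10 at 0.519 and 0.564. The third was microsomal glutathione S-transferase for annexin I, at 0.522, and nonspecific lipid-transfer protein for annexin V, at 0.651. For annexin IV the nearest was calmodulin, a calcium sensor, at 0.862, before the alpha 1 subunit of Na+/K+ ATPase at 1.01 and presenilin 1 at 1.35. The ratios of these neighbours ran from 0.253 (liver carboxylesterase 10) to 0.804 (the ATPase subunit).

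In the order of array codes, the spots just before and after each annexin were read as well. Those next to lipocortin 2, annexin IV and annexin V had at most 39 on any array. Synaptotagmin XI, next to annexin I, read 70 and 81 in the controls and 88 and 113 in the OE-treated rats. Steroid 17-alpha-hydroxylase (CYP17), next to annexin III, was at 125 on OE 2 and at most 21 elsewhere. Codes with the same letters and the adjoining number were not read. For lipocortin 2 (B13f) these include intestinal fatty acid-binding protein (B14f), at 1690 on OE 2. The part of neighbouring spots in the annexin signals was not tested.

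The other genes of the pathways in which annexins take part showed no gene past the test. The plasminogen system, for which annexin II is a surface receptor, had 5 spots, of which 4 entered and 3 had a ratio under 0.5, against 18.3% of all genes. After scaling, all 4 were highest on control 2, against 45.1% of all genes. Of the 5 spots only tissue-type plasminogen activator was detected on any array. Tissue-type plasminogen activator read 16 and 132 in the controls and 65 and 43 in the OE-treated rats, with a ratio of 0.347 and the array order of lipocortin 2. Urokinase-type plasminogen activator read 15, 102, 42 and 35, with a ratio of 0.320, and was below the detection limit on each array. The third, the urokinase receptor, read 27, 31, 35 and 4, all below the detection limit. Its scaled value on OE 2 lay at the floor, so its ratio of 0.340 is not a reliable fold. Plasminogen activator inhibitor 1 also entered, at 5, 9, 7 and 13, with a ratio of 0.798. Before scaling, it was highest on OE 2 and the urokinase receptor on OE 1. No spot of the array was named for an S100 protein, the partners of several annexins, by the names searched.

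Of the 7 phospholipase A2 and lipoxygenase spots, which belong to the arachidonate pathway that annexin I is known to restrain, 5 entered. Of the 5, 1 had a ratio under 0.5 and 1 over 1.5, against 18.3% and 18.9% of all genes. Both were detected on no array. The calcium-dependent phospholipase A2 (PLA2G5) was detected on all 4 arrays, at 140, 123, 202 and 149, with a ratio of 0.758. Cytosolic phospholipase A2 was not detected, at 43, 21, 57 and 22, and had a ratio of 0.719. For glucocorticoid action there were 3 spots, all below the detection limit. Of these, 2 were highest on control 2 and had a ratio under 0.5, against 45.1% and 18.3% of all genes. 11-beta-hydroxysteroid dehydrogenase 2, which inactivates glucocorticoids, had 22, 106, 25 and 37 and a ratio of 0.248. 11-beta-hydroxysteroid dehydrogenase 1, which regenerates them, had 5, 28, 15 and 11, a ratio of 0.383 and the array order of annexin I. The glucocorticoid receptor had 25, 14, 37 and 15 and a ratio of 0.767.

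Calcium-binding proteins of other families had 11 spots. Of these 9 entered, with a median log2 ratio of 0.24, and 6 of the 11 were detected on no array. A ratio under 0.5 was found for 0, against 18.3% of all genes. A ratio over 1.5 was found for 3, against 18.9%, and these 3 were detected on no array. Calmodulin had 236, 303, 224 and 304 and a ratio of 0.555, and calcium binding protein 2, a chaperone of the endoplasmic reticulum, had 418, 940, 1753 and 805 and a ratio of 0.946. Among 17 spots for membrane traffic and exocytosis, 10 entered, and 16 were detected on no array. Of the 10, 2 had a ratio under 0.5 and 2 over 1.5, against the same shares of all genes. Synaptobrevin 2, a vesicle fusion protein, had 67, 27, 186 and 95 and a ratio of 1.80, and synaptotagmin XI had a ratio of 0.761. Whether these lists differ from the annexins was not tested.

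Markers of the cells in the tissue differed between the same arrays as the annexins. Of the 6 adipocyte spots, only FABP4, the fatty acid carrier of adipocytes, was detected on all 4 arrays. It read 3532, 19033, 8811 and 8512, with a ratio of 0.381. Lipoprotein lipase had 115, 746, 342 and 242 and a ratio of 0.327, while the leptin spot was at most 11. The summed level of the 6 adipocyte spots was 2251 array medians on control 2 and 268 to 528 on the other arrays. After scaling, all 5 that entered were highest on control 2, against 45.1% of all genes. Of these, fatty acid synthase had a ratio of 0.108, perilipin 0.524 and CD36 1.30. Fatty acid synthase was detected on 1 array, and perilipin and CD36 on 2 each. CD36 read 26, 114, 270 and 112, so its highest adjusted intensity was on OE 1. FABP4 alone made up 2115 of the sum on control 2, and lipoprotein lipase was at 82.9 array medians there and at 8.21 to 15.5 on the others. For the mesothelium, which covers mesenteric fat, there was 1 spot, WT1, with an adjusted intensity of 19, 278, 121 and 37 and a ratio of 0.238, so that it had the array order of annexin I. The 7 leukocyte spots had a summed level of 27.8 array medians on control 2 and 125 to 238 on the others. None of the 7 was highest on control 2, and all but CD4 were lowest there. CD45, the common leukocyte antigen, was at 2038, 71, 3180 and 1319, and CD3 gamma, a T cell receptor component, at 330, 11, 753 and 307. On control 2 the CD3 zeta and CD8 spots were at 0. The other 3 differed less between the controls, with scaled levels on control 1 and control 2 of 15.6 and 5.56 for CD53, 11.2 and 8.00 for CD4, and 7.14 and 5.11 for the macrophage receptor c-fms. CD4 was lowest on OE 2, at 6.41.

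The summed level of the 5 annexins was 199 array medians on control 2, against 31.7 for control 1 and 42.2 and 36.4 for the OE arrays. The part of the cell makeup in the annexin values was not tested.

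**Figure D4:**
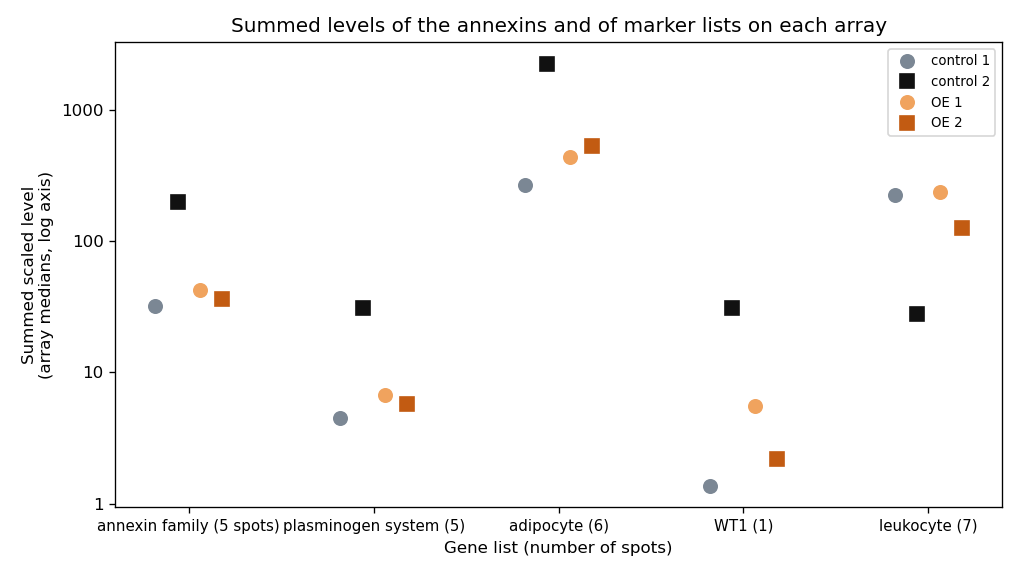
Summed scaled level (array medians, log axis) of the spots of each list on the 4 arrays; circles are sample 1 and squares sample 2, dark for controls and orange for OE-treated rats. The annexins, the plasminogen system, the adipocyte list and WT1 are highest on control 2, and the leukocyte list is lowest there, at 27.8; each sum is led by its brightest spots, such as FABP4 in the adipocyte list.

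Markers of the gut and pancreas, which border on mesenteric fat, were looked at as well. Of 5 intestinal spots 4 entered, all with a ratio over 1.5, against 18.9% of all genes. The summed level of the 5 was 273 array medians on OE 2 and 1.44 to 3.14 on the other arrays. Intestinal fatty acid-binding protein was at 1690 on OE 2 and at most 12 elsewhere, and apolipoprotein A-IV at 1433 on OE 2 and at most 22 elsewhere. Annexin IV had its highest adjusted intensity on the same array, 173, and the part of the intestinal transcripts in it was not tested. Without OE 2 the ratio of annexin IV was 0.278, and without OE 1 it was 1.13. The 9 pancreatic spots were at most 18 on any array, with colipase at 15, 6, 11 and 18 and chymotrypsinogen B at 11, 7, 7 and 6. The endothelial receptors VEGFR1 and VEGFR2 were at most 22.

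The ratios of the annexins depended on which control was used. Without control 1 they were 0.140 for annexin V, 0.152 for annexin I, 0.240 for lipocortin 2, 0.303 for annexin III and 0.523 for annexin IV. Without control 2 they were 1.10, 1.58, 1.26, 1.52 and 1.08 for the same genes, so that 0 lay under 0.5 and 2 (annexin I and annexin III) over 1.5. Under every scaling tried, annexin V, annexin I and lipocortin 2 kept a ratio under 1, the highest being those without scaling, at 0.530, 0.587 and 0.805. Annexin III and annexin IV had ratios of 1.02 and 1.19 without scaling. Scaling to the housekeeping genes put all 5 under 0.5, at 0.174 for annexin V to 0.448 for annexin IV, but it also moved the median log2 ratio of all genes to -0.91. Without scaling that median was 0.63, with -0.31 for the annexins, which were thus below the median of all genes in both settings. Without control 2 they were above it, with a median of 0.33 against 0.15 for all genes.

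**Figure D5:**
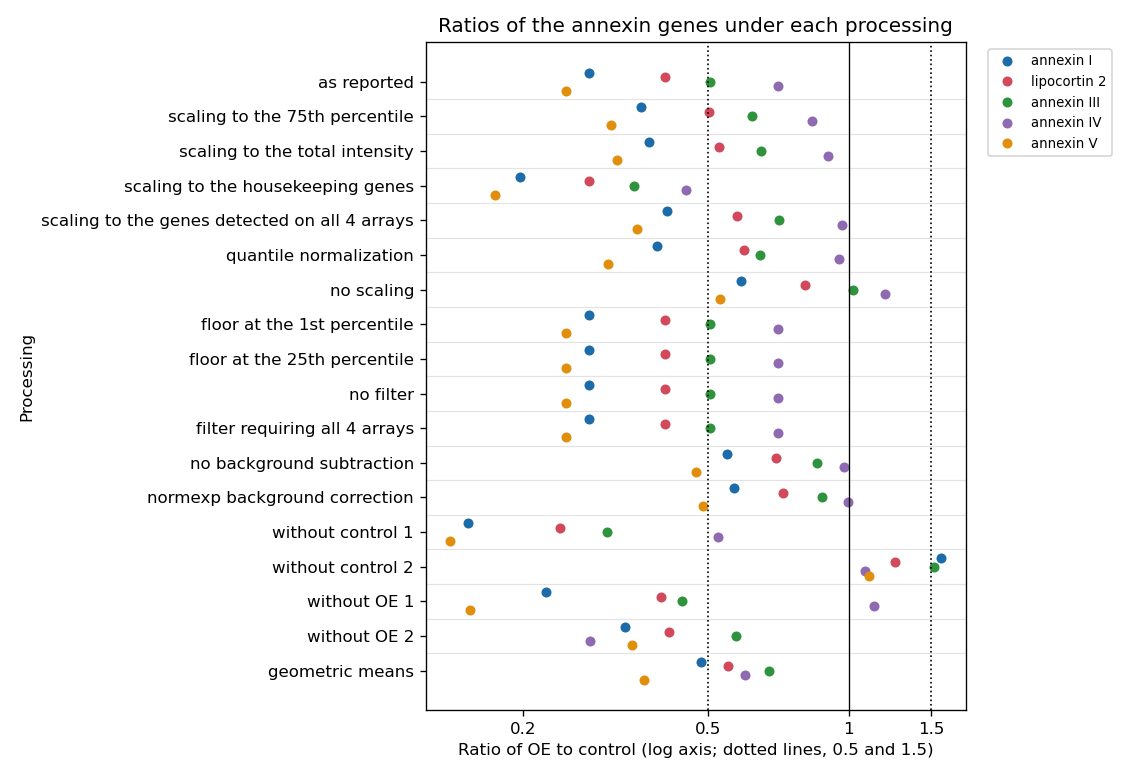
Ratio of OE to control (x axis, log scale) for each annexin gene as reported and under 17 other ways of processing; the solid line marks 1 and the dotted lines 0.5 and 1.5. Leaving out control 2 moves all 5 genes to the right of 1, up to 1.58 for annexin I.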

How the data were processed

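RNA of mesenteric adipose tissue (5 µg per rat) had been labelled with 33P and hybridized to nylon cDNA arrays, 2 control and 2 OE-treated rats, grouped by their labels. The authors deposited intensity values from their image analysis: spot intensity, background and adjusted intensity (spot minus background, 0 where negative) of 1185 spots, without scaling. The 12 columns of a second array in these files, with a ratio and a difference, were left out. In a table of all samples each annexin's 4 values stood in 1 row, under row names that could not be matched to array codes.

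As in the study's methods, arrays were scaled by their 50th percentile. Scaled values were raised to at least 0.235 array medians (the 10th percentile of positive values). The 922 genes above this on both arrays of at least 1 group entered. Ratios of group means were set against cutoffs of 0.5 and 1.5. Limma 3.58.1 in R 4.3.3 was applied to the log2 values (group only, Benjamini-Hochberg over 922 genes, threshold 0.05). Its code was tried on simulated data. That trial does not show that changes can be found at the spread of these arrays. The median standard error of the 922 genes was 0.74. The GeneSpring error model was not repeated here. Lists were matched by gene name, leaving out rows that were another gene. Named from each list were the genes detected on all 4 arrays, or the 2 brightest where fewer than 2 were. Added after their values were seen were the urokinase receptor, plasminogen activator inhibitor 1, 11-beta-hydroxysteroid dehydrogenase 1, leptin and CD36. The same holds for fatty acid synthase, perilipin, CD3 zeta, CD4, CD8, CD53 and c-fms. Detection means at least 2 times the background. The members and lists were chosen with earlier results of these data known.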

Additional observations from a re-analysis of the deposited data

How the results depend on the processing

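The count of annexins under a ratio of 0.5, which was 3, became 5 with scaling to the housekeeping genes, 0 without scaling, 1 without background subtraction and 1 with normexp (offset 50). It was 2, without lipocortin 2, with 75th percentile, total intensity or detected-gene scaling, with quantile normalization and with geometric means, where the ratio of lipocortin 2 was 0.502, 0.528, 0.575, 0.596 and 0.550. When single arrays were left out, 0 (without control 2) to 4 annexins were under 0.5 and 0 to 2 over 1.5. The median log2 ratio of the annexins then ran from -2.06 (without control 1) to 0.33 (without control 2), where it changed sign. The ratios of annexin I, lipocortin 2 and annexin V changed sides without control 2, to 1.58, 1.26 and 1.10, and were 0.152, 0.240 and 0.140 without control 1. Over all genes, the counts under 0.5 and over 1.5 were 169 and 174 of 922 tested. They were 422 and 48 of 934 with housekeeping scaling, and 29 and 484 of 954 without scaling. With the background left in they were 10 and 76 of 1137, and with normexp 10 and 82 of 1105. Of the 922 genes, 265 and 269 were counted without control 1, and 81 and 299 without control 2. Under 0.5 the detected-gene scaling gave 106 of 935. Over 1.5 the 25th percentile floor gave 110 of 753 and the filter on all 4 arrays 102 of 679, so fewer genes were tested there. Each of the floors and filters tried left all 5 annexin ratios as they were. With limma, 0 genes had an adjusted p under 0.05 in each of the 18 alternatives that were tested. Their lowest adjusted p was between 0.188 (without control 1) and 0.999, and 1 (without OE 2) to 226 genes had an unadjusted p under 0.05, against 19 as reported. Without control 1, control 2 was the only control, and the log2 fold changes of the annexins ran from -2.95 (annexin V) to -1.26 (annexin IV). A lone array of a group was there assumed to vary like the other group. With the sample number as a replicate block the count was 0, for the annexins also, with the same log2 fold changes and an adjusted p of 0.991. Same-numbered arrays did not deviate together (correlation across genes 0.0495), and with 2 pairs the numbers do not pair the rats. The table of the whole series was not run as an alternative, since its rows carry no array codes.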
